A study of Mus musculus with 6 samples.

Results

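The genes of Wnt signalling were compared between 4T1 cells that carried an shRNA against NFAT1 and 4T1 cells that carried a control shRNA. The set was taken by name: every gene whose symbol starts with Wnt or Fzd followed by a digit, and 24 ligand modifiers, coreceptors, inhibitors, intracellular components and target genes listed singly. Tcf7 was not analysed here, which left 53 genes of the 18193 on the array with 1 gene symbol per probe set: 19 Wnt ligands, 11 Fzd entries and 23 of the listed genes. One of the Fzd entries, Fzd10os, is an RNA from the strand opposite Fzd10 and not a receptor. Each gene was read by the probe set with the highest mean signal over the 6 arrays.

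4T1 is a mouse mammary carcinoma line, described in the labels as highly tumorigenic and metastatic. NFAT1 is a calcium-dependent transcription factor encoded by Nfatc2. Adherent cells were transduced with a control vector (3 samples) or a vector expressing the NFAT1 shRNA (3 samples), selected for 10 days and lysed, and 200 ng of total RNA per sample was labelled for an Affymetrix mouse array. The shRNA sequence, the selection agent and the number of shRNAs were not given in the sources used here, and all samples come from the same line. The labels do not say whether samples of a group were separate cultures, so the p-values rest on a spread among samples that may be only technical. Values are log2 RMA signals, and differences are NFAT1 shRNA minus control.

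Wnt proteins are secreted lipid-modified ligands that bind Frizzled (Fzd) receptors and the coreceptors Lrp5 and Lrp6. In the canonical branch this frees beta-catenin (Ctnnb1) from a destruction complex built on Axin and Apc, and beta-catenin then activates target genes together with the DNA-binding factors Lef1, Tcf7, Tcf7l1 and Tcf7l2. Several targets, among them Axin2, Nkd1, Rnf43, Znrf3 and Notum, feed back as inhibitors. In the mammary gland the pathway is known for maintaining progenitor cells and for causing tumours when it is switched on constitutively.

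Several facts of the arrays bear on all values. The targeted gene Nfatc2 was read by 6 probe sets, of which 4 were lower and 2 higher with NFAT1 shRNA. With limma 0 of these passed over 45037 probe sets, while 3 had an unadjusted p under 0.05. Those 3 included a probe set that was higher by 0.35, without overlap. The largest difference was -0.76 (adjusted p = 0.0707). The samples are therefore named by their labels. The arrays of a group did not lie equally far apart. Where the controls spanned at least 1 and one of them reached 7, control 3 lay between controls 1 and 2 for 157 of 157 genes. Control 3 thus did not widen the control range for these genes, and whether it is independent of controls 1 and 2 was not tested. The 53 Wnt pathway genes were not among the 157, since their control range was at most 0.63. Control 3 lay within the range of controls 1 and 2 for 33 of the 53 (62.3%), against 55.0% of all genes. NFAT1 shRNA 1 correlated across genes with the controls at 0.991 to 0.994 and with NFAT1 shRNA 2 and 3 at 0.985 and 0.984, as a description, since genes are not replicates. Results are therefore also given without these arrays. All 10 epithelial markers had mean signals from 9.35 to 13.1 and averaged 11.2 to 11.4 on the control arrays and 11.1 to 11.5 on the others. Of the markers of other cell types, 1 of 8 fibroblast, 2 of 7 leukocyte and 0 of 5 endothelial genes had a mean of at least 6. Pdgfra averaged 7.23 in control and 7.71 in NFAT1 shRNA cells, Cd68 6.54 and 7.30 (adjusted p = 0.406), and Csf1r 8.26 and 8.09. The defining leukocyte gene Ptprc averaged 2.95 and 2.96. The part of such cells in the results was not tested.

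No Wnt pathway gene of the set passed limma's test at an adjusted p under 0.05, where 0.511% of all genes did. An unadjusted p under 0.05 was found for 7 of the 53 (13.2%), against 17.1% of all genes, and the groups did not overlap for 13 of the 53 (24.5%), against 22.8% of all genes. Over all 53 these shares lie near those of the whole array. Among genes with a group mean of at least 6, the groups did not overlap for 9 of 23 members (39.1%), against 26.9%. In the limma fit to all genes, 6 of the 23 (26.1%) had an unadjusted p under 0.05, against 17.1% of all genes, dim ones included. With limma fitted to genes with such a mean alone, 4 of the 23 did, against 20.9%. Whether these shares differ was not tested. The median difference of the 53 was 0.02, against 0.04 over all genes, and with array medians subtracted these were -0.07 and -0.04. In size, 43 of the 53 differed by less than 0.25. A difference of at least 0.5 was reached by 5 of the 53, where 10.2% of all genes reached it. All 5 were among the 23 with a group mean of at least 6, and 16.8% of all such genes reached it. The 5 were Wnt10a, Wnt7a and Fzd9, which were lower with NFAT1 shRNA, and the inhibitors Sfrp1 and Notum, which were higher. This holds for the probe set chosen for each gene, and other Wnt7a probe sets went the other way. In a bulk culture, fewer cells that express a gene and less RNA per cell cannot be told apart.

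**Figure D1:**
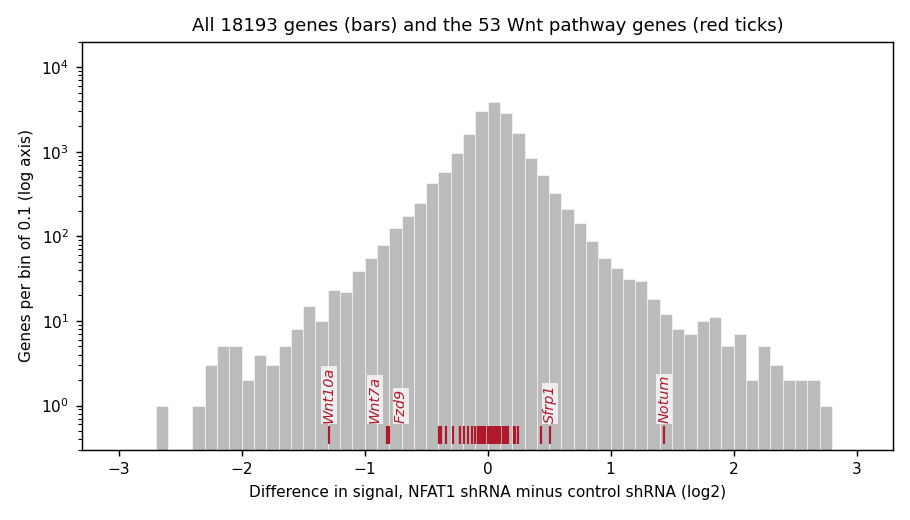
Number of genes (log axis) per bin of 0.1 in the log2 difference NFAT1 shRNA minus control for 18193 genes (grey bars), with the 53 Wnt pathway genes as red ticks. Most ticks lie near 0, and the 5 named genes lie further out, at -1.29 (Wnt10a), -0.82 (Wnt7a), -0.80 (Fzd9), 0.51 (Sfrp1) and 1.44 (Notum).

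Many of the 53 genes were dim. A group mean of at least 6 was reached by 23, and the other 30 lay below that in both groups, and no detection calls were used, so whether these were above background is not known. The dim ones included 15 of 19 Wnt ligands and 7 of the 9 genes of the set that are widely given as direct targets of beta-catenin (Axin2, Lef1, Nkd1, Notum, Lgr5, Rnf43, Znrf3, Sp5 and Dkk1). Signals of different probe sets are not compared as amounts, since probes differ in affinity.

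**Figure D2:**
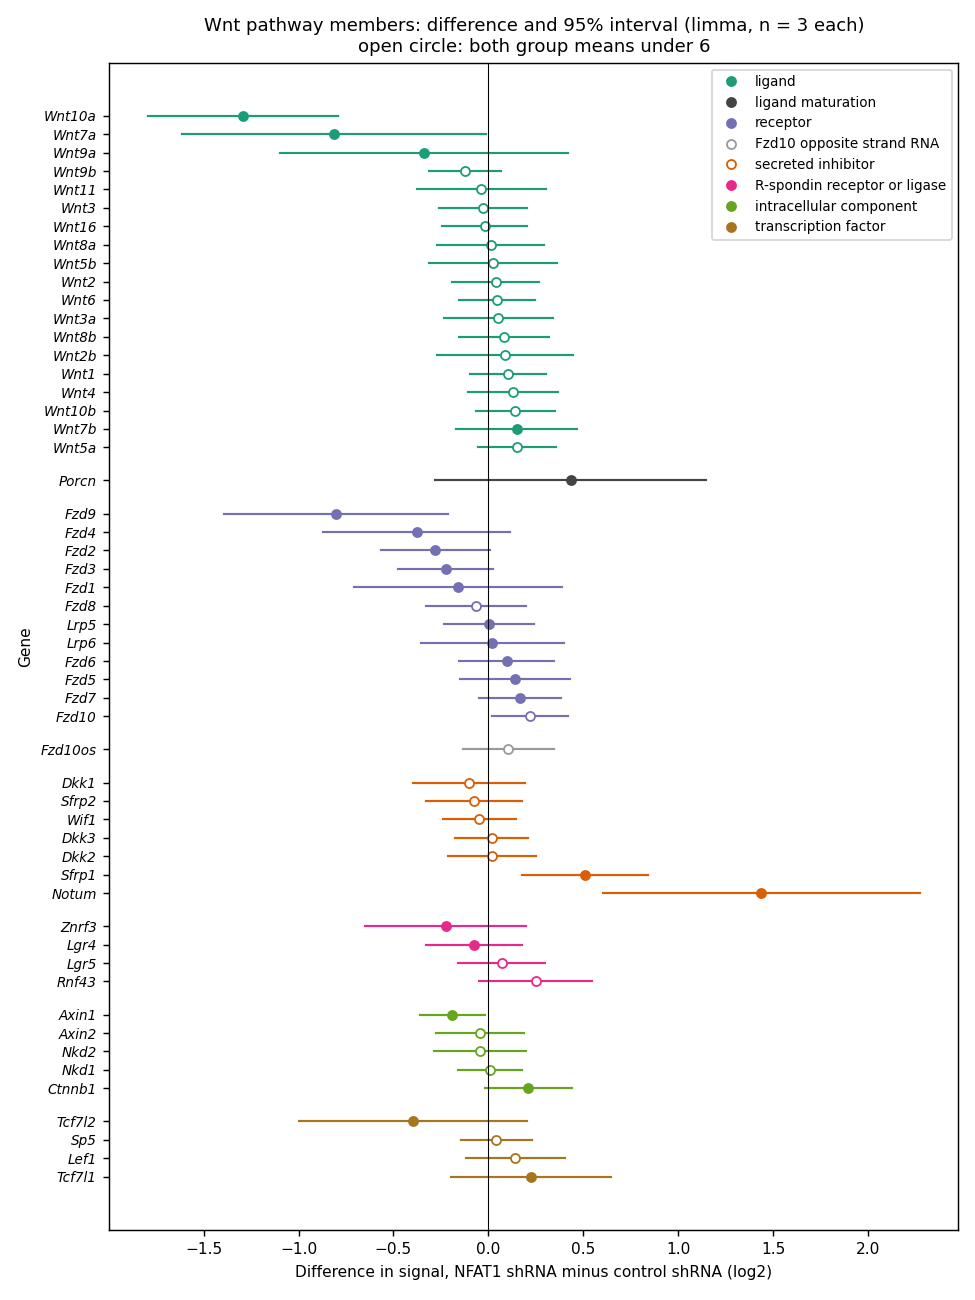
Log2 difference NFAT1 shRNA minus control with its 95% interval from limma (3 arrays against 3) for each of the 53 genes, grouped by role; open circles mark genes with both group means under 6. Wnt10a and Notum lie furthest from 0, and the intervals of most other genes include 0.

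Among the ligands, Wnt10a differed most. Wnt10a encodes a ligand with known roles in tooth, hair and skin development and in holding back fat cell formation. Control arrays 1 to 3 gave signals of 8.57, 9.18 and 8.92, against 7.28, 7.62 and 7.90 for NFAT1 shRNA arrays 1 to 3. All NFAT1 shRNA arrays lay below all control arrays, and the gap between the groups exceeded the range within the controls. The mean went from 8.89 ± 0.30 with the control vector to 7.60 ± 0.31 with the NFAT1 shRNA (SD, n = 3), a difference of -1.29 ± 0.21 (SE) or a 2.45-fold lower signal. With limma the adjusted p over all genes was 0.0677, and a 2-sided exact permutation test gave 0.1, its lower limit with 3 against 3. It passed with array medians subtracted (adjusted p = 0.0157), with quantile normalization repeated (0.0428), with array weights (0.00797) and without NFAT1 shRNA 1 (0.0125). The highest adjusted p over all settings was 0.365, without control 3, and the difference ran from -1.45 to -1.12. Only 1 probe set reads Wnt10a, so there is no other reading of the gene.

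Wnt7a, a ligand that acts in limb and uterine patterning, was less even. Controls gave 9.00, 8.65 and 8.89, and NFAT1 shRNA samples 8.51, 7.23 and 8.35. The groups did not overlap, but most of the distance came from NFAT1 shRNA 2. The difference was -0.82 ± 0.33 (SE, adjusted p = 0.286) and -0.41 without NFAT1 shRNA 2. The adjusted p ran from 0.0296, with array weights, to 0.652 over the settings. Another Wnt7a probe set went the other way, also without overlap, from a control mean of 6.35 to 6.60 (0.25, adjusted p = 0.297 over all probe sets). In the same limma fit the adjusted p of the lower probe set was 0.310. A dim probe set was higher as well (0.16). The mean of the 3 probe sets differed by -0.13.

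Wnt7b, closely related to Wnt7a and known in mammary and lung epithelium, was the ligand with the brightest probe set and showed no such difference. It read 9.11, 9.49 and 9.27 in control cells and 9.35, 9.35 and 9.62 in NFAT1 shRNA cells, and the groups overlapped. The difference was 0.15 with a 95% interval from -0.17 to 0.47. The remaining ligand with a mean of at least 6, Wnt9a, split the NFAT1 shRNA arrays: 5.41 and 5.81 on arrays 1 and 2 lay below the controls (6.07, 6.48 and 6.37), and 6.68 on array 3 lay above them (-0.34, adjusted p = 0.585). The other 15 ligands, dim on every array, differed by -0.12 (Wnt9b) to 0.15 (Wnt5a), with adjusted p-values from 0.390 to 0.967. Among these were Wnt1, Wnt3a and Wnt10b, classical activators of the canonical branch (0.10, 0.05 and 0.14), and Wnt5a and Wnt11, known for the beta-catenin-independent branch (0.15 and -0.04).

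Porcn, the acyltransferase that lipidates Wnt proteins before secretion, read 5.58, 6.10 and 5.90 in control cells and 5.64, 6.48 and 6.76 in NFAT1 shRNA cells. NFAT1 shRNA 1 lay within the control range and arrays 2 and 3 above it. The difference was 0.43 (adjusted p = 0.464), and without NFAT1 shRNA 1 it was 0.76 (adjusted p = 0.0296). The adjusted p ran up to 0.761 over the settings.

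On the brightest probe set of each, 6 of the 10 Frizzled receptors were lower and 4 higher on average with NFAT1 shRNA. This split was the same with array medians subtracted or quantile normalization repeated. Each of the 4 higher ones also had a probe set that was lower, while the 6 lower ones had none that was higher. Fzd9 differed most: 6.90, 6.27 and 6.55 on the control arrays against 6.24, 5.62 and 5.45 on the NFAT1 shRNA arrays. The groups were separated only narrowly, by NFAT1 shRNA 1 and control 2. The difference was -0.80 ± 0.25 (SE, adjusted p = 0.212), and it was -1.04 without NFAT1 shRNA 1 (adjusted p = 0.0149) and -1.05 without control 3 as well (0.0740). The adjusted p reached 0.535, without control 1.

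Fzd2 read 8.73, 8.92 and 8.86 in control cells and 8.34, 8.63 and 8.71 in NFAT1 shRNA cells, a difference of -0.28 ± 0.12 (SE, adjusted p = 0.298), and its 3 probe sets had lower means throughout. Fzd3 was chosen for the text after its values were seen, because all 6 of its probe sets were lower, by 0.40 at most. On its brightest probe set it differed by -0.23 (adjusted p = 0.322) without overlap. Fzd4 (-0.38), Fzd1 (-0.16) and Fzd8 (-0.07) were also lower on average, with overlap. NFAT1 shRNA 3 lay above every control array for Fzd1 and within the control range for Fzd4.

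Of the receptors that were higher on average, Fzd6 and Fzd7 differed by 0.10 (95% interval -0.15 to 0.34) and 0.17 (-0.05 to 0.38). Fzd5 differed by 0.14 and the dim Fzd10 by 0.22, the latter without overlap (adjusted p = 0.269). Other probe sets of these 4 receptors went the other way. They differed by -0.14 (Fzd5), -0.09 (Fzd7), -0.07 (Fzd10) and -0.13 and -0.04 (Fzd6). Fzd10os differed by 0.10. The coreceptors needed for canonical signalling were level: Lrp6 read 9.66 ± 0.19 in the control group and 9.68 ± 0.24 in the other (SD, n = 3), a difference of 0.02 (-0.35 to 0.40), and Lrp5 differed by 0.00083 (-0.24 to 0.24). The sign of Lrp5, Lrp6 and, with the mean of its probe sets, Fzd6 depended on the setting.

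Wnt7a and Fzd9 are members with a difference of at least 0.5 for which RefSeq's promoter table held a start. The 250 bases before it (GRCm38.p6) are shown because both genes read lower on all NFAT1 shRNA arrays on the probe set chosen for each. Another Wnt7a probe set read higher on all of them. The windows are Wnt7a at chr6:91411354-91411603 (minus strand) and Fzd9 at chr5:135251048-135251297 (minus strand). They were searched on both strands for CTTTGAT or CTTTGTT, letters of the TCF/LEF motif, and for TGGAAA, letters of the NFAT motif. Shorter runs such as GGAAA were not searched and are not marked. Neither window held any of the runs searched, so no letters are capitals.
Wnt7a: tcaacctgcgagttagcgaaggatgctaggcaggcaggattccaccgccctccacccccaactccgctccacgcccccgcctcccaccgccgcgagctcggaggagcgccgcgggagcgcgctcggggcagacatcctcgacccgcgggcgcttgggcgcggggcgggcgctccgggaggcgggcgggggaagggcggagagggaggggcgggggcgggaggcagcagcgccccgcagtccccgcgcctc
Fzd9: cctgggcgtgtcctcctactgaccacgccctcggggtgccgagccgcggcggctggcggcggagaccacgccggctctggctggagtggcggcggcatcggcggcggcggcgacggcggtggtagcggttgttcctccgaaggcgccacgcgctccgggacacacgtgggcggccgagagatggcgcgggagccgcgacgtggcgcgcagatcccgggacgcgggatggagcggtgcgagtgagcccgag
Of the 44 windows for 35 of the 53 genes, 6 held a TCF/LEF match (13.6%), against 8.06% of 32851 windows in the table, and 5 held TGGAAA (11.4%), against 18.6%. A match is a run of letters and not a binding site, and the lack of one says nothing about either factor.

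Notum and Sfrp1 stood out among the secreted inhibitors. Notum encodes an enzyme that removes the lipid from Wnt proteins and is itself a target of the pathway. Controls gave 5.46, 5.58 and 5.37, close to each other and below 6, against 6.76, 7.72 and 6.25 on the NFAT1 shRNA arrays. All NFAT1 shRNA arrays were higher, and they differed more among themselves than the controls did. The difference was 1.44 ± 0.35 (SE, adjusted p = 0.156), from a control level that was dim. It passed with array weights (1.69, adjusted p = 0.0150) and without NFAT1 shRNA 1 (1.51, 0.0421), and the adjusted p ran up to 0.486, without control 3. A single probe set reads Notum.

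Sfrp1, which binds Wnt proteins outside the cell and is known as a gene silenced in breast cancer, read 7.53, 7.87 and 7.76 in control cells and 8.45, 8.06 and 8.18 in NFAT1 shRNA cells. The difference was 0.51 ± 0.14 (SE, adjusted p = 0.184), without overlap. All 5 Sfrp1 probe sets were higher on average, by 0.27 to 0.52. It passed with array weights alone (0.41, adjusted p = 0.0474), and the adjusted p reached 0.498 over the settings. The other 5 inhibitors, Dkk1, Dkk2, Dkk3, Sfrp2 and Wif1, were dim on all arrays and differed by -0.10 to 0.02.

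**Figure D3:**
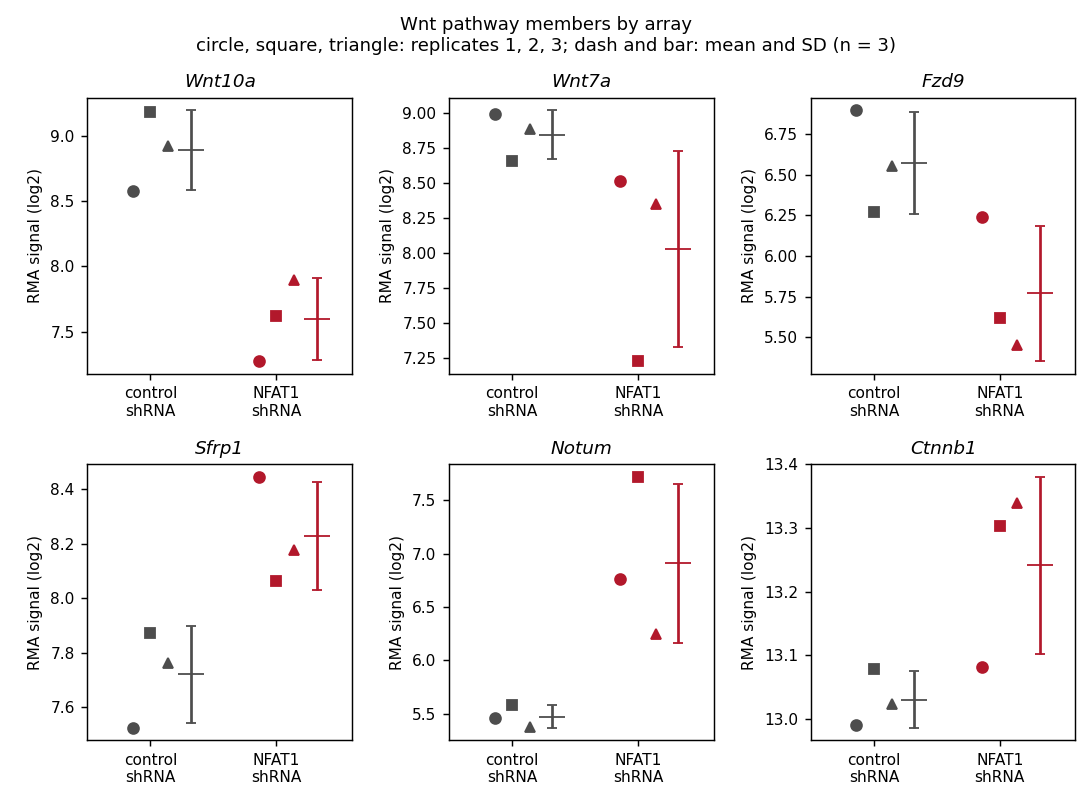
RMA signal (log2; each axis has its own range) of 6 Wnt pathway genes on each array, with the mean and SD of the 3 arrays of a group. Wnt10a, Wnt7a and Fzd9 are lower and Sfrp1, Notum and Ctnnb1 higher for each NFAT1 shRNA sample than for any control, narrowly so for Fzd9 and Ctnnb1. Each gene is shown on its brightest probe set, and other Wnt7a probe sets went the other way. None of the 6 passed the test over all genes.

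Inside the cell, Ctnnb1 (beta-catenin) read 12.99, 13.08 and 13.02 in control cells and 13.08, 13.30 and 13.34 in NFAT1 shRNA cells. NFAT1 shRNA 1 was level with control 2, and arrays 2 and 3 lay above all controls. The difference was 0.21 ± 0.10 (SE, adjusted p = 0.315). Its other probe sets differed by 0.45 (adjusted p = 0.237 over all probe sets) and 0.32, so all 3 were higher on average. Beta-catenin activity is set mainly by protein stability, which these arrays do not measure.

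Axin1, the scaffold of the destruction complex, read 9.19, 9.12 and 9.18 in control cells and 8.98, 8.96 and 8.98 in NFAT1 shRNA cells. All NFAT1 shRNA arrays were lower, by a small amount (-0.19 ± 0.07, SE, adjusted p = 0.264). Axin2, its relative and a standard readout of canonical signalling, was dim and level, at 5.38 ± 0.11 and 5.34 ± 0.10 (SD, n = 3), a difference of -0.05 (95% interval -0.28 to 0.19) whose sign depended on the arrays used. Nkd1 and Nkd2, inhibitors that bind Dishevelled, differed by 0.0084 and -0.05.

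The R-spondin receptors Lgr4 and Lgr5, which strengthen Wnt signalling, differed by -0.08 and 0.07. Rnf43 and Znrf3, the ligases that these receptors hold back and that remove Frizzled from the surface, differed in opposite directions, by 0.25 (adjusted p = 0.345) and -0.23 (adjusted p = 0.520). Rnf43 was dim, and its highest reading, 5.23, was on NFAT1 shRNA 3.

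Of the nuclear factors, Tcf7l2 read 7.25, 7.30 and 7.17 in control cells and 6.30, 6.89 and 7.35 in NFAT1 shRNA cells. Arrays 1 and 2 lay below the controls and array 3 above them, so the difference of -0.40 (adjusted p = 0.430) was within the spread of the NFAT1 shRNA arrays. Without NFAT1 shRNA 1 it was -0.12. Another probe set was lower on all 3 arrays (-0.53, adjusted p = 0.240 over all probe sets).

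Tcf7l1, mostly a repressor, read 7.76, 7.92 and 7.81 in control cells and 7.67, 8.15 and 8.34 in NFAT1 shRNA cells. The difference was 0.23 (adjusted p = 0.515), and without NFAT1 shRNA 1 it was 0.42 (adjusted p = 0.0370), in a range up to 0.822 over the settings. Lef1 was dim and differed by 0.14 (adjusted p = 0.513). Sp5, a target gene that encodes a zinc finger factor, differed by 0.04.

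The 9 direct targets named above did not share a direction, but 7 of them were dim and may not have been above background. On average 6 were higher and 3 lower, or 3 and 6 with array medians subtracted (Nkd1, Lgr5 and Sp5 turned). The 8 other than Notum lay between -0.23 and 0.25. The 250 bases before the Sp5 start, at chr2:70474673-70474922 of GRCm38.p6 (plus strand), are shown because they hold 2 of the TCF/LEF runs (capitals), CTTTGTT on the opposite strand from 222 bases and CTTTGAT from 104 bases before the start, in a gene whose signal was dim and level (4.15 ± 0.07 and 4.19 ± 0.02, SD, n = 3). The same length before the upstream Ctnnb1 start, chr9:120933150-120933399 (plus strand), holds TGGAAA on the opposite strand (capitals).
Sp5: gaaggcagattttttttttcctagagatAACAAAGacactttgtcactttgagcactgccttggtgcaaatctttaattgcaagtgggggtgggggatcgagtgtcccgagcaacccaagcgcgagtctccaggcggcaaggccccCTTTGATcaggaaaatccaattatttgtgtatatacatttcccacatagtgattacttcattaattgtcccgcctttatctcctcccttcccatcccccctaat
Ctnnb1: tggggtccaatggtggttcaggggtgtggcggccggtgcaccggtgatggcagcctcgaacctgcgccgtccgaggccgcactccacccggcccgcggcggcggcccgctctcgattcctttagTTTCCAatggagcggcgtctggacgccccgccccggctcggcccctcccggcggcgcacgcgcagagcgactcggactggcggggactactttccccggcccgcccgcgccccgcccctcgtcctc

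**Figure D4:**
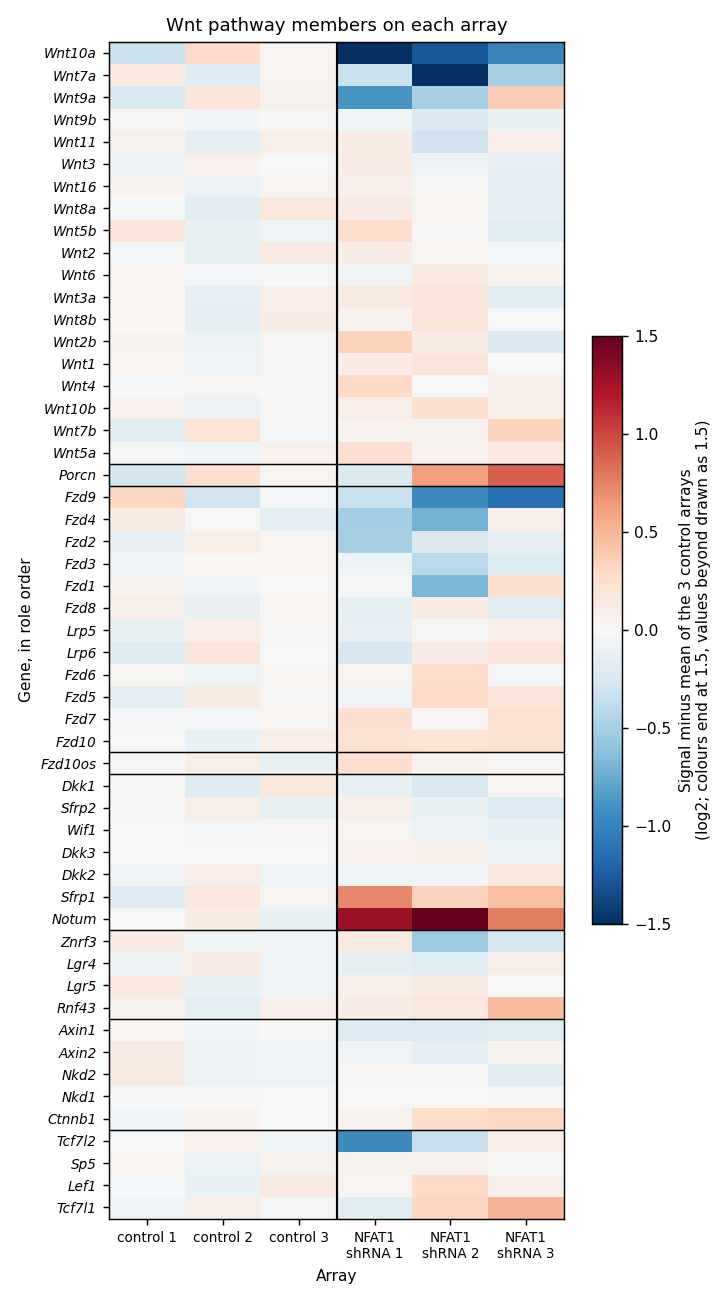
Signal of each of the 53 genes (rows, in role order) on each of the 6 arrays (columns), minus the mean of the 3 control arrays (log2; red higher, blue lower). Wnt10a, Notum and Sfrp1 keep their colour over all NFAT1 shRNA arrays, while Wnt9a and Tcf7l2 change it between NFAT1 shRNA 1 and 3.

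The counts depended on single arrays. Without NFAT1 shRNA 1, 5 of the 53 genes passed with limma (9.43%), but so did 18.4% of all genes. Those 5 were Wnt10a, Fzd9, Notum, Porcn and Tcf7l1. With array weights 6 passed (11.3%), against 18.6% of all genes, namely Wnt10a, Wnt7a, Fzd9, Fzd3, Notum and Sfrp1. In both of these the share was below that of the whole array. With array medians subtracted and with quantile normalization repeated, 1 of the 53 passed (1.89%), in each case Wnt10a, against 0.83% and 0.61% of all genes. The array weights gave control 3 a weight of 10.4 and the other 5 arrays 0.253 to 1.01. That fit therefore rests mainly on control 3 for its control level, the array that lay between controls 1 and 2 in the 157 genes counted above. Without control 1, 2 or 3, 0 of the 53 and 0 of all genes passed with limma. Of the 53, 3, 4 and 5 then had an unadjusted p under 0.05, against 9.33%, 12.4% and 9.68% of the array. Without control 3 and NFAT1 shRNA 1 together 0 of the 53 passed, against 2.24% of all genes. At an unadjusted p under 0.05 there were 8 of the 53, against 23.7% of all genes.

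Beyond the 53, further genes of the pathway were read: 53 components and 14 genes widely given as targets. Limma called 0 of the 53 components (8 had an unadjusted p under 0.05) and 1 of the 14 targets, against 0.511% of the array. That gene is Tnfrsf19, whose rise in these data was known when the list was written, so its call is no independent evidence. At an unadjusted p under 0.05 there were 11 of the 67 (16.4%), 5 higher and 6 lower, against 17.1% of all genes.

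Ror1, a receptor tyrosine kinase for Wnt5a in the beta-catenin-independent branch, had the lowest adjusted p among the components. It read 7.52, 6.76 and 7.14 in control cells and 5.63, 4.56 and 5.32 in NFAT1 shRNA cells, with more than 1 log2 unit between the groups. The difference was -1.97 ± 0.31 (SE, adjusted p = 0.0650), down to signals below 6. It ran from -2.20 to -0.63 over the settings, the last with the mean of its probe sets, of which the other 2 read below 4. The adjusted p was 0.00726 without NFAT1 shRNA 1 and at most 0.354, without control 3. Its relative Ror2 was dim and differed by -0.01.

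Prickle1, a planar cell polarity gene, read 6.17, 6.41 and 6.36 in control cells and 6.57, 7.55 and 8.06 in NFAT1 shRNA cells (1.08 ± 0.35, SE, adjusted p = 0.225), with array 1 nearest the controls. Without NFAT1 shRNA 1 the difference was 1.49 (adjusted p = 0.00502), and with the mean of its 3 probe sets 0.45. The adjusted p reached 0.541, without control 1. The other listed polarity genes of the Celsr, Vangl and Prickle families were chosen for the text after their values were seen. Celsr1 differed by -0.95 (adjusted p = 0.246), with overlap on NFAT1 shRNA 3, and Celsr2 by -0.32 without overlap (adjusted p = 0.186). Vangl1, Vangl2 and the dim Prickle2 differed by -0.05, -0.32 and -0.18.

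Lgr6, another R-spondin receptor and a marker of stem cells in skin, read 7.82, 7.30 and 7.60 in control cells and 8.44, 9.18 and 8.60 in NFAT1 shRNA cells. The difference was 1.16 ± 0.22 (SE, adjusted p = 0.0998) or 2.24-fold, without overlap, and its other probe set was higher as well (0.73). The adjusted p was 0.0118 without NFAT1 shRNA 1 and ran up to 0.423, without control 3.

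Apc, a scaffold of the destruction complex, differed by -0.06 (95% interval -0.26 to 0.14), and the kinase gene Gsk3b read 9.73, 9.79 and 9.82 against 9.76, 10.15 and 10.40, a difference of 0.32 (adjusted p = 0.349) that came from NFAT1 shRNA 2 and 3. Without NFAT1 shRNA 1 Gsk3b passed (0.50, adjusted p = 0.0238), and the adjusted p reached 0.627 without control 1. Wls, which carries Wnt proteins to the cell surface, differed by -0.0056 (-0.49 to 0.48) on its brightest probe set, with a sign that depended on the setting. Its other probe sets differed by 0.39 (without overlap, adjusted p = 0.25 over all probe sets), 0.49 (adjusted p = 0.291) and, dim, 0.02.

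Among the further targets, Tnfrsf19, a TNF receptor family gene known as Troy, read 4.00, 4.28 and 4.34 in control cells and 5.75, 6.74 and 7.01 in NFAT1 shRNA cells. It rose by 2.29 ± 0.32 on the log2 scale (SE, adjusted p = 0.0496). No fold is given, since the control level was dim. The rise did not pass without control 1 (0.253), control 2 (0.206), control 3 (0.296), NFAT1 shRNA 2 (0.178) or NFAT1 shRNA 3 (0.0868). Its other probe sets were higher by 0.65 and 0.01, and the mean of the 3 rose by 0.985 (adjusted p = 0.0354).

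Ccn4, a matricellular protein gene named for its induction by Wnt signalling in an earlier nomenclature, went the opposite way. It read 7.62, 7.96 and 7.66 in control cells and 5.79, 5.69 and 6.58 in NFAT1 shRNA cells, a difference of -1.73 ± 0.24 (SE, adjusted p = 0.0513). Its other probe set read 7.78, 8.21 and 7.95 against 4.71, 4.18 and 6.32, a difference of -2.91 ± 0.51 (SE). No array of one group reached the other on either probe set, and NFAT1 shRNA 3 was nearest the controls on both. The adjusted p over the settings ran from 0.00658 to 0.313. Ccn4 passed in 7 of 15 alternative settings, among them without NFAT1 shRNA 1 (0.0114) or NFAT1 shRNA 3 (0.0366).

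Jag1, a Notch ligand gene that beta-catenin can activate, read 9.88, 9.00 and 9.52 in control cells and 8.72, 7.23 and 8.23 in NFAT1 shRNA cells (-1.41 ± 0.40, SE, adjusted p = 0.193). Its 3 probe sets had lower means throughout, and without NFAT1 shRNA 1 it passed (-1.74, adjusted p = 0.0209), while the adjusted p reached 0.512 without control 1. Myc and Ccnd1, the classical growth targets, differed little. Myc read 11.06, 10.91 and 10.98 against 11.00, 10.40 and 10.79 (-0.26, adjusted p = 0.423), and Ccnd1 12.22, 12.14 and 12.14 against 12.21, 11.97 and 11.82 (-0.17, adjusted p = 0.461). For both, NFAT1 shRNA 1 lay within the control range on these probe sets. Other Ccnd1 probe sets differed by -0.12 and 0.13.

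**Figure D5:**
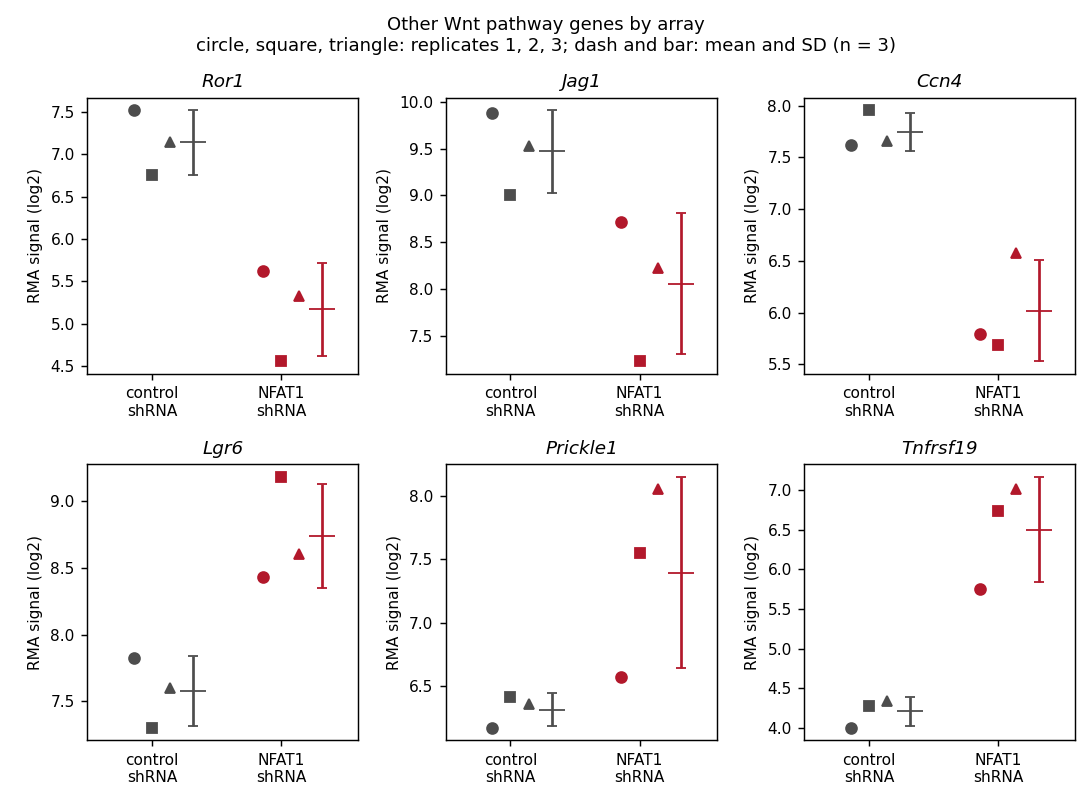
RMA signal (log2; each axis has its own range) of 6 further Wnt pathway genes on each array, with the mean and SD of the 3 arrays of a group. Ror1, Jag1 and Ccn4 are lower and Lgr6, Prickle1 and Tnfrsf19 higher for the whole NFAT1 shRNA group than for any control, and of these Tnfrsf19 passed the test over all genes (adjusted p = 0.0496).

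RefSeq's table holds 2 starts for Tnfrsf19, and the 250 bases before the one at chr14:61037988-61038237 of GRCm38.p6 (minus strand) are shown because this is the gene that passed and the window holds CTTTGAT, on the opposite strand from 202 bases before the start (capitals). The window of the other start held none of the letters searched.
Tnfrsf19: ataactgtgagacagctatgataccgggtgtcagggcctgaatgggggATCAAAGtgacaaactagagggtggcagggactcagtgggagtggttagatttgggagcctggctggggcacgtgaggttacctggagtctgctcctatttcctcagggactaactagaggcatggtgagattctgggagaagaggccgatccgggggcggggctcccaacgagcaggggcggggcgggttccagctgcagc
Of the 62 windows of the further genes, 4 held a TCF/LEF match (6.45%) and 4 held TGGAAA (6.45%).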

How the data were processed

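Affymetrix mouse arrays were hybridised with RNA from 4T1 cells (6 samples, 3 per group), and groups and replicate numbers came from the labels. The authors deposited log2 signals. They come from RMA, according to the submitters' processing notes, in a version that the sources used here do not name. RMA's quantile step would hide a shift of most transcripts in 1 direction.

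Of 45037 probe sets, 34945 had 1 gene symbol in the platform annotation, giving 18193 genes, each read by its probe set with the highest mean. The test was limma's (version 3.58.1, functions lmFit and eBayes, R 4.3.3), fitted to all genes without filter or covariates, with Benjamini-Hochberg adjustment over all genes; p-values are 2-sided. Probe sets other than the chosen one were tested in a fit over all 45037. The fit was tested on simulated data with noise drawn independently for each gene and array. Such data cannot show how the fit behaves where arrays share deviations. Exact permutation tests used scipy 1.17.1.

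The genes described, the further lists and the tests were chosen with earlier results of these data known. The text names genes central to the pathway, those without overlap and a difference of at least 0.4 (0.7 for further genes) at a group mean of at least 6, and the 3 brightest Wnt and Fzd genes; others are given by role. Marker lists were written from textbook knowledge. Precision is limited by the number of arrays, which have no read depth. The 15 alternatives are in the closing section.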

Additional observations from a re-analysis of the deposited data

How the results depend on the processing

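Of the 29 genes that the rule for named genes took, 24 kept their direction in each alternative setting run for them. There were 15 settings, or 14 for Axin2 and Lef1, which the filter on dim genes removed, and for Ctnnb1, Notum, Porcn and Myc, which have no probe set left without the _s_at, _x_at and _a_at ones. Those that turned lay near 0. Lrp5 was -0.086 with array medians subtracted, -0.090 with quantile normalization repeated and -0.055 to 0.063 when single samples were left out. Lrp6 was -0.066 with array medians subtracted and -0.078 to 0.158, Axin2 -0.098 to 0.017, and Wls -0.172 to 0.203 when single samples were left out. Wls was also 0.024 with array weights, 0.25 without control 3 and NFAT1 shRNA 1 and 0.23 with the mean of its probe sets, the setting in which Fzd6 was -0.025.

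Counts of genes with an adjusted p under 0.05 (limma) moved more. Over all genes 93 became 151 with array medians subtracted, 3380 with array weights, 407 without control 3 and NFAT1 shRNA 1, and 0 to 3349 when single samples were left out. For the 53 Wnt pathway genes 0 became 1 with array medians subtracted, 1 with quantile normalization repeated, 6 with array weights and 0 to 5 when single samples were left out. For the 67 further genes 1 became 2 with dim genes left out, 3 with array medians subtracted, 2 with quantile normalization repeated, 13 with array weights, 3 without control 3 and NFAT1 shRNA 1, and 0 to 15 when single samples were left out. The cause was not tested.

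Whether replicate numbers pair the samples was not settled. Deviations of same-numbered samples from their group means correlated across genes at 0.692, 0.535 and -0.0419. Those of differently numbered samples correlated at -0.693 to 0.465. Control 3 gave -0.0419 to 0.0197 with the NFAT1 shRNA samples, so its values cannot decide this. With the replicate block the counts were 792 over all genes (4.35%), 3 of the 53 (5.66%) and 4 of the 67. The block added calls for Wnt10a (adjusted p = 0.0114), Fzd9 (0.0293), Notum (0.0324), Ror1 (0.00364), Ccn4 (0.0201) and Jag1 (0.0114), and Tnfrsf19 remained called. With 3 arrays per group and 30 of the 53 genes dim, small differences could not be detected.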

Other observations

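Single NFAT1 shRNA samples often read within the range of the 3 controls. This was so for 15 of the 53 Wnt pathway genes in NFAT1 shRNA 1 (28.3%, against 38.9% of all genes), for 16 in NFAT1 shRNA 2 (30.2%, against 26.7%) and for 14 in NFAT1 shRNA 3 (26.4%, against 31.6%). Tle2, a Groucho family corepressor gene chosen after its values were seen, read 5.46, 5.94 and 5.72 in controls. NFAT1 shRNA 1 lay within that range at 5.57, and NFAT1 shRNA 2 and 3 lay above it at 7.03 and 7.09 (0.85, limma adjusted p = 0.333).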
